A study of Rattus norvegicus with 17 samples.

Results

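The cell cycle and replication genes of the liver were followed in young rats whose mothers had fatty liver. The set holds 40 genes by name, 18 of S phase and 22 of mitosis, and a gene was used where a probe set of the array is annotated with it as its only gene. This gave 31 of the 40, out of 14557 named genes on the array. Of the S phase genes 14 were measured and of the mitosis genes 17. Mcm5, Tk1, Ccnd1, Cdk2, Birc5, Nusap1, Top2a, Mki67 and Ube2c, which make up the other 9, were not analysed here. All 31 measured genes passed the filter on low values. Of these, 7 were dim, with a mean below 2.58, the 50th percentile of the log2 values: Cdc6, Gins1, Ccne2, Bub1b, Ttk, Kif11 and Cenpf.

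RNA came from whole liver of male Wistar pups aged 24 days, with 1 pup from each of 17 litters and 1 array per pup. Every mother had been fed a choline-deficient AIN-93 M diet for 16 weeks before mating with a male on the standard diet, so no group analysed here was born to mothers without fatty liver. In the DD group (n = 4) the mother's diet stayed deficient through pregnancy and lactation. DN mothers (n = 5) stayed on the deficient diet in pregnancy and received the standard AIN-93 G diet, with adequate choline, in lactation. ND mothers (n = 4) received adequate choline in pregnancy and the deficient diet in lactation. NN mothers (n = 4) received adequate choline in both periods. The comparisons ask how choline in each of these periods relates to the pup's liver.

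A dividing cell first loads the MCM helicase onto replication origins with the help of CDC6 and CDT1, then copies its DNA behind the sliding clamp PCNA with nucleotides made by thymidylate synthase and ribonucleotide reductase. E2F transcription factors switch many of these S phase genes on. Later, cyclin A and cyclin B bound to CDK1 drive the cell into mitosis. The DREAM and MMB complexes and FOXM1 control mitotic genes through a promoter element called the cell cycle genes homology region (CHR) and through CCAAT boxes bound by NF-Y. Hepatocytes still divide in the growing liver of a young rat and become mostly quiescent in the adult.

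Both kinds of element could be read in the promoters, which are shown because the set was not chosen on them and S phase and mitosis promoters held them at different shares. RefSeq promoters of build GRCr8, covering 250 bases before to 50 after the gene start, were matched for 23 of the 31 genes. E2F words (TTTCCCGC, TTTCGCGC, TTTGCCGC or TTTGGCGC, both strands) were present in 7 of 10 S phase promoters and 1 of 13 mitosis promoters, against 2.25% of all 27457 promoters. The S phase genes with one were Mcm2, Mcm3, Mcm6, Mcm7, Cdt1, Gins1 and Tyms, and the mitosis gene was Cdk1. The CHR word TTTGAA, on either strand, was present in 8 of 13 mitosis promoters and 1 of 10 S phase promoters, against 18.1% of all. CCAAT on either strand was present in 10 of 13 mitosis promoters and 6 of 10 S phase promoters, against 37.7% of all. Words can overlap at their edges, which among the sequences printed here happened once, in Mcm7. A match is a run of letters and not a measured binding site.

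The 150 bases before the start of 6 genes are printed 5′ to 3′ on the gene's own strand, with these words in capitals. Cdt1, Tyms, Prc1 and Cdk1 have the largest statistics in DD against DN, by phase, among genes that are not dim and have a promoter entry, and Mcm7 and Ccnb2 were added after the values were seen. Their positions are chr19:67529099-67529248 (plus strand) for Cdt1, chr9:120776084-120776233 (minus strand) for Tyms, chr12:22163179-22163328 (minus strand) for Mcm7, chr1:143659331-143659480 (plus strand) for Prc1, chr20:19265143-19265292 (plus strand) for Cdk1 and chr8:79981659-79981808 (minus strand) for Ccnb2.
Cdt1: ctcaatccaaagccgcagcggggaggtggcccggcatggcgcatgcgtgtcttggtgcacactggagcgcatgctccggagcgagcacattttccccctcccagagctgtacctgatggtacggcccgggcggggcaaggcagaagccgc
Tyms: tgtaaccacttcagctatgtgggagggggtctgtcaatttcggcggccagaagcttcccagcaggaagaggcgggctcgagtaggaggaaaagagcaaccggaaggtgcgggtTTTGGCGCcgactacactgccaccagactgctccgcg
Mcm7: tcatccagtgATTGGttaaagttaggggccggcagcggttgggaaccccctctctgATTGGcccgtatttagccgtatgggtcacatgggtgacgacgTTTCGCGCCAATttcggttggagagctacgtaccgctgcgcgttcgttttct
Prc1: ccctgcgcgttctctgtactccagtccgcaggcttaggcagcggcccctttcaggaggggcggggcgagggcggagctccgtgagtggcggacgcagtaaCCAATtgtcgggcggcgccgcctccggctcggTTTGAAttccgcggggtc
Cdk1: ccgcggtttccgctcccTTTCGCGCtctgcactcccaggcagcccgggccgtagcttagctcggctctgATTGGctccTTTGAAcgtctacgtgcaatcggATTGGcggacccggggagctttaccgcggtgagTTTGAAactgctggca
Ccnb2: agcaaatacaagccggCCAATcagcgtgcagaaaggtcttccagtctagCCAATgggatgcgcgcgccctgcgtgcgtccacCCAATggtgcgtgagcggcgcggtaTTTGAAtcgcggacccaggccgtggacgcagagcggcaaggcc
Capitals read ATTGG where the CCAAT box lies on the other strand. Tyms carries 1 E2F word from -37 to -30, counted from the gene start. In Mcm7 an E2F word from -52 to -45 runs into a CCAAT box, sharing 1 base, and further CCAAT boxes lie upstream. Prc1 has a CCAAT box from -50 to -46 and the CHR word from -18 to -13. Ccnb2 has 3 CCAAT boxes, at -134, -101 and -68, and the CHR word from -43 to -38. Cdk1 carries all the words: E2F from -133 to -126, CCAAT boxes from -81 and from -49, and CHR words from -72 and from -16. The stretch printed for Cdt1 holds none of the words, and its 2 E2F words lie after the start, from 7 to 14 and from 32 to 39.

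The arrays differed somewhat in level and in spread. Array medians lay between 2.50 (DN 4) and 2.71 (DD 3) and mean correlations with the other arrays between 0.940 and 0.967. The SD over all probe sets of an array, called array spread here, ran between 1.62 (DD 3) and 1.79 (ND 4). It averaged 1.67 ± 0.052 in DD, 1.75 ± 0.029 in DN, 1.74 ± 0.041 in ND and 1.70 ± 0.057 in NN livers (SD). A free-text field on the samples names the LnCap cell line, whereas the tissue label names liver. Hepatocyte markers (Alb, Tf, Ttr, Fgg and Cps1) were bright in every liver, with a summed linear signal between 10572 and 12182. No batch is given in the labels. Values below are log2 probe set signals, which compare livers for 1 gene and not genes with each other.

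No cell cycle gene passed the test in any of the 6 comparisons made (limma, Benjamini-Hochberg adjusted p under 0.05 over 12912 genes). In DD against DN 0.00774% of all genes passed, which is 1 gene, Tfec. In DD against ND, DN against NN, ND against NN, DD against NN and the interaction 0% passed. The order of the group means was uneven. DN livers had the highest mean of the 4 groups for 19 of the 31 genes, 13 of 17 in mitosis and 6 of 14 in S phase, against 25.3% of all genes. DD livers had the lowest mean for 16 of 31, 9 in S phase and 7 in mitosis, against 31.4% of all genes. In whole liver RNA, fewer dividing cells and less of a transcript per cell cannot be told apart.

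**Figure D1:**
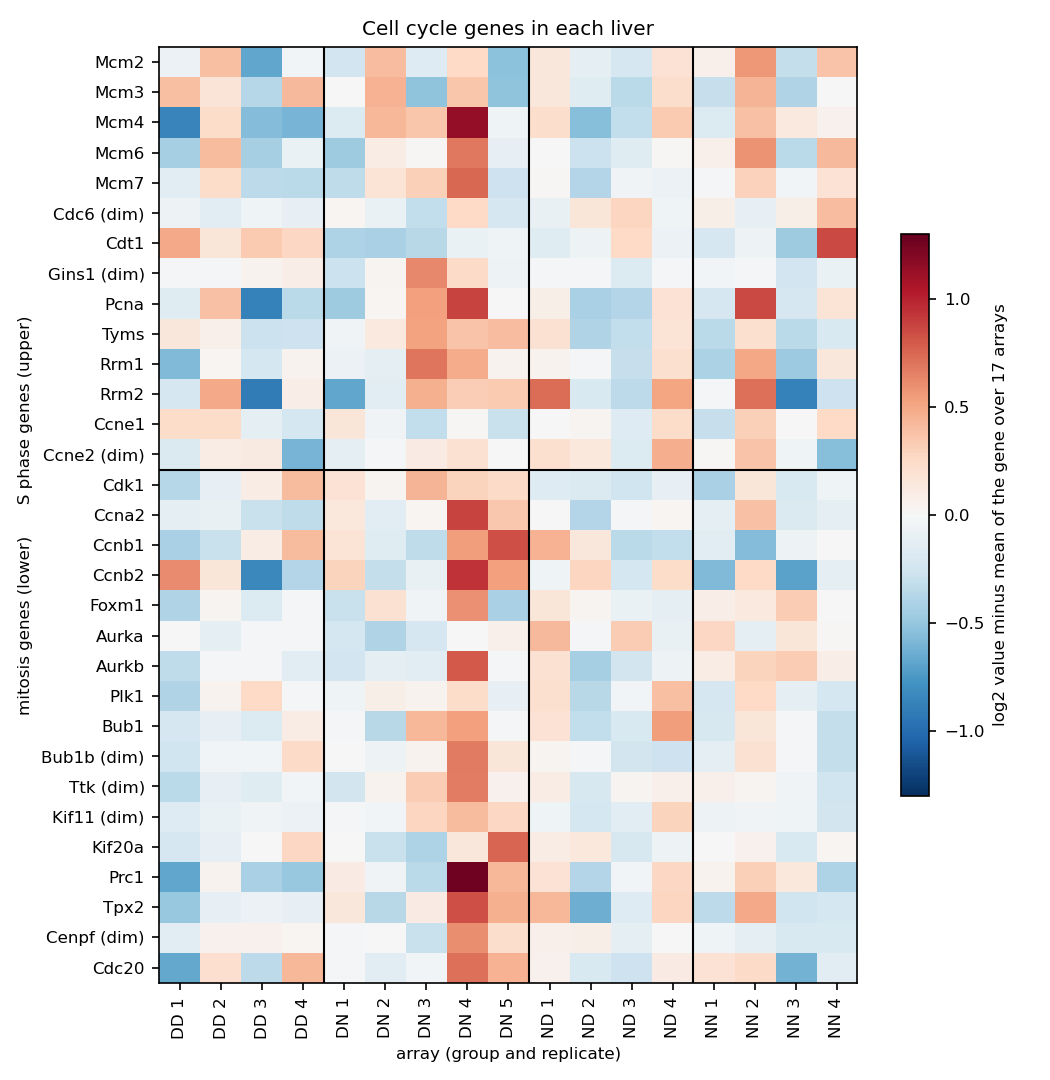
Each row is a cell cycle gene and each column a liver, and colour is the log2 value minus the gene's mean over the 17 arrays. Liver DN 4 is red in most rows, above the gene's own mean in 29 of 31 genes, while DD 1 is above it in 5 of 31.

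One liver, DN 4, stood apart. It had the highest value of all 17 arrays for 15 of the 31 genes, 4 of S phase (Mcm4, Mcm6, Mcm7 and Pcna) and 11 of mitosis (Ccna2, Ccnb2, Foxm1, Aurkb, Bub1b, Ttk, Kif11, Prc1, Tpx2, Cenpf and Cdc20). Among all genes tested, DN 4 was highest for 8.95%. The median of the genes' deviations from their own means was 0.53 in DN 4, and between -0.05 and 0.05 in the other 4 DN livers. Over mitosis genes it was 0.61 and over S phase genes 0.34. Prc1 exceeded the median of the other DN livers by 1.23, Mcm4 by 0.99, Aurkb by 0.94, Pcna by 0.87, Ccnb2 by 0.85 and Ccna2 by 0.80. Tyms (0.10) and Cdk1 (0.08) exceeded it least. Liver NN 2 came next, with S phase genes at 0.38 and mitosis genes at 0.16. There Pcna exceeded the median of the other NN livers by 1.07, Rrm2 by 0.98 and Rrm1 by 0.91. DD 1 was the lowest of all arrays for 6 genes, and ND 2 and DN 3 were lowest for 5 each. Among all genes tested, DD 1 was lowest for 7.92%, ND 2 for 3.20% and DN 3 for 9.53%. DN 3 was also the highest array for 4 genes of the set and above the gene's own mean in 17 of 31.

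On some other measures DN 4 was at or near the top of the 17 livers. Its array spread, 1.79, was among the 3 widest, with ND 4 and NN 2. Its summed endothelial markers (Stab2, Lyve1, Tek and Cdh5) were 327, the highest of the 17 livers, where the other DN livers lay between 216 and 308. The highest ND and NN livers read 312 and 308. Its summed lymphocyte markers (Cd3e, Cd3g, Cd2, Ms4a1 and Ptprc) were also highest at 26.1, against 21.4 to 23.1 in the other DN livers. The highest ND and NN livers read 25.9 and 25.3 for them, and 4 of these 5 markers were dim. The erythroid markers, of blood-forming cells, ranked 15th in DN 4, as did the neutrophil and the cholangiocyte markers. Its Kupffer cell and macrophage markers ranked 3rd, its stellate cell markers 7th and its hepatocyte markers 12th. Liver NN 2, the next highest for the cell cycle genes, ranked 4th for the endothelial and 15th for the lymphocyte markers. The part of these measures in the cell cycle values of this liver was not tested. Values without it are given for the medians and for the 4 leading genes of each comparison that involves DN.

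Licensing and helicase genes held both the largest negative and the largest positive difference between DD and DN. Mcm4, a subunit of the MCM2-7 helicase, had log2 signals of 3.38, 4.48, 3.68 and 3.63 in the DD livers, 4.07, 4.68, 4.60, 5.38 and 4.19 in the DN livers, 4.47, 3.69, 3.93 and 4.59 in the ND livers and 4.06, 4.63, 4.37 and 4.30 in the NN livers. DD 1, DD 3 and DD 4 lay under every DN liver, and DD 2 lay within the DN range. The DD minus DN difference was -0.79 ± 0.26 (SE, 95% interval -1.34 to -0.24, limma adjusted p = 0.15), the largest statistic among the genes of the set. Without DN 4 it was -0.59 ± 0.24 (adjusted p = 0.327), and with array spread as a covariate -0.28. Against NN livers the DD difference was -0.54 ± 0.28 (adjusted p = 0.999), and -0.35 with that covariate.

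Cdt1, which loads the helicase with CDC6 and is destroyed once S phase begins, ran the other way. It read 4.20, 3.85, 4.04 and 3.97 in the DD livers, 3.30, 3.28, 3.34, 3.61 and 3.65 in the DN livers, 3.54, 3.64, 3.96 and 3.62 in the ND livers and 3.48, 3.63, 3.24 and 4.56 in the NN livers. Every DD liver was above every DN liver, and NN 4 was above them all. DD minus DN was 0.58 ± 0.20 (95% interval 0.16 to 1.00, adjusted p = 0.157), 0.63 ± 0.21 without DN 4 and 0.56 with array spread as a covariate. In DD against ND it was 0.33 ± 0.21 (adjusted p = 0.633). Cdt1 was the only gene of the set with an unadjusted p under 0.05 in the interaction, which compares DD minus DN with ND minus NN: 0.62 ± 0.29 (adjusted p = 0.242). It was 0.67 without DN 4 and 0.34 without NN 4. Among all genes, 20% had such a p there, 8.12% in the same direction.

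Mcm6 averaged 4.13 ± 0.40 in DD, 4.32 ± 0.42 in DN, 4.17 ± 0.14 in ND and 4.45 ± 0.41 in NN livers (SD throughout for group means). Mcm7 averaged 3.59 ± 0.28 in DD, 3.86 ± 0.44 in DN, 3.62 ± 0.18 in ND and 3.85 ± 0.16 in NN livers. For both, ND minus NN was the comparison that brought them among the leading genes, at -0.28 ± 0.24 and -0.23 ± 0.20, with adjusted p of 0.889 or more. The Mcm6 value ran from -0.46 without NN 3 to -0.15 without NN 2, and the Mcm7 value was -0.14 without ND 2. Both were larger with array spread as a covariate, -0.54 for Mcm6 and -0.42 for Mcm7. Mcm3 averaged 4.63 ± 0.37 in DD, 4.43 ± 0.47 in DN, 4.44 ± 0.27 in ND and 4.41 ± 0.38 in NN livers, and its DD minus DN difference was 0.20 ± 0.24. A second probe set of Mcm3 gave 3.73 in DD and 3.91 in DN livers, the opposite order, so the direction of this gene is unsettled. Mcm2 (DD minus DN -0.04 ± 0.22), the loader Cdc6 (-0.03 ± 0.13) and Gins1 (-0.10 ± 0.14), a part of the active helicase, lay closer to 0. Of the 8 genes of this role 6 had a negative DD minus DN difference and 2 a positive one.

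Clamp and nucleotide genes had a negative DD minus DN difference in 4 of 4 members measured. Pcna, the sliding clamp, had values of 4.70, 5.25, 3.98 and 4.51 in the DD livers, 4.40, 4.88, 5.39, 5.74 and 4.85 in the DN livers, 4.94, 4.44, 4.48 and 5.05 in the ND livers and 4.64, 5.72, 4.64 and 5.04 in the NN livers. The groups overlapped widely, DN 4 and NN 2 were the 2 highest livers and DD 3 was the lowest. The DD minus DN difference was -0.44 ± 0.29 (95% interval -1.05 to 0.16, adjusted p = 0.409).

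Tyms, thymidylate synthase, had values of 4.95, 4.87, 4.53 and 4.53 in the DD livers, 4.76, 4.93, 5.33, 5.17 and 5.21 in the DN livers, 5.00, 4.41, 4.49 and 4.99 in the ND livers and 4.45, 5.01, 4.46 and 4.61 in the NN livers. The 3 highest livers were all DN, namely DN 3, DN 5 and DN 4. The DD minus DN difference was -0.36 ± 0.17 (adjusted p = 0.269) and DN minus NN 0.45 ± 0.17 (95% interval 0.09 to 0.80, adjusted p = 0.311), the largest statistic of the set in that comparison. Without DN 4 DN minus NN was 0.42 ± 0.18, so this value did not rest on that liver. It was 0.29 with array spread as a covariate. The interaction was -0.45 ± 0.25 (adjusted p = 0.312), -0.42 without DN 4 and -0.04 once array spread was a covariate. The ribonucleotide reductase subunits Rrm1 and Rrm2 gave DD minus DN of -0.39 ± 0.21 and -0.20 ± 0.33, and Rrm2 varied most within groups of all 31 genes (within-group SD 0.559).

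Cyclin E binds CDK2 at the entry to S phase. Ccne1 averaged 3.42 ± 0.24 in DD, 3.29 ± 0.20 in DN, 3.41 ± 0.17 in ND and 3.45 ± 0.28 in NN livers, and DD minus DN was 0.13 ± 0.15. The dim Ccne2 averaged 2.07 ± 0.34 in DD, 2.25 ± 0.12 in DN, 2.37 ± 0.27 in ND and 2.16 ± 0.38 in NN livers, and its DD minus ND difference of -0.30 ± 0.19 (adjusted p = 0.622) led that comparison. It was -0.11 with array spread as a covariate, -0.15 without DD 4 and -0.20 without ND 4.

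**Figure D2:**
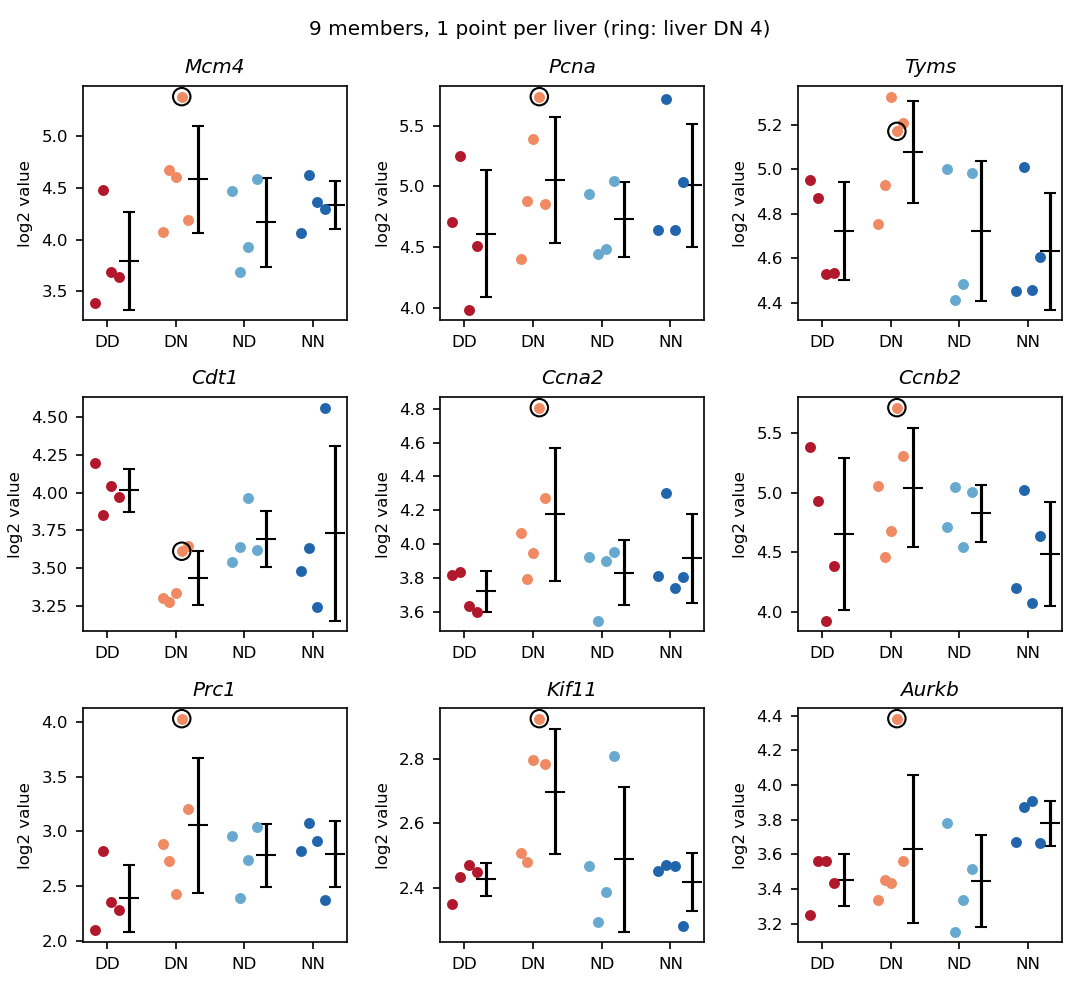
Points are log2 signals of 9 cell cycle genes in single livers, by group, each with its own axis. Bars give the mean and SD (n = 4, 5, 4 and 4) and a ring marks DN 4, which is the highest liver for 7 of the 9 genes. Cdt1 is the gene whose DD livers all lie above the DN livers.

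Among the mitotic cyclins all 5 measured genes of the role had negative DD minus DN differences. Ccna2, cyclin A2, had values of 3.81, 3.83, 3.63 and 3.60 in the DD livers, 4.06, 3.79, 3.95, 4.81 and 4.27 in the DN livers, 3.92, 3.55, 3.90 and 3.96 in the ND livers and 3.81, 4.30, 3.74 and 3.81 in the NN livers. The DD livers sat in a narrow band at or below 3.83, DN 4 and NN 2 were the 2 highest livers, and DN 2 lay inside the DD band. The difference from DN was -0.46 ± 0.18 (95% interval -0.83 to -0.08, adjusted p = 0.195), and -0.30 ± 0.15 without DN 4 (adjusted p = 0.396). With array spread as a covariate it was -0.17.

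Ccnb2, cyclin B2, had values of 5.38, 4.93, 3.93 and 4.38 in the DD livers, 5.06, 4.46, 4.67, 5.71 and 5.31 in the DN livers, 4.71, 5.05, 4.54 and 5.00 in the ND livers and 4.20, 5.02, 4.07 and 4.64 in the NN livers. DD 3 was the lowest of the 17 livers and DD 1 the second highest, so the DD group was spread over nearly the whole range. DN minus NN was 0.56 ± 0.29 (95% interval -0.04 to 1.16, adjusted p = 0.391) and 0.39 ± 0.28 without DN 4. ND minus NN was 0.34 ± 0.30 (adjusted p = 0.892), 0.52 without NN 2, 0.21 without NN 3, 0.10 with array spread as a covariate and 0.19 with its probe sets averaged. DN minus NN with the covariate was 0.30, and the interaction was -0.73 ± 0.41 (adjusted p = 0.327). The interaction was -0.56 without DN 4 and -0.08 with array spread as a covariate. A second probe set gave 2.68 in DD and 3.10 in DN livers, the same direction as the set used (4.66 and 5.04), whereas its ND and NN means were nearly equal (2.70 and 2.67).

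Cdk1, the kinase that both cyclins activate, had values of 2.53, 2.80, 3.00 and 3.32 in the DD livers, 3.09, 2.94, 3.34, 3.19 and 3.15 in the DN livers, 2.74, 2.71, 2.64 and 2.79 in the ND livers and 2.48, 3.06, 2.70 and 2.84 in the NN livers. DD 1 was the second lowest and DD 4 the second highest of the 17 livers, so the DD and DN groups overlapped. DN minus NN was 0.37 ± 0.15 (95% interval 0.06 to 0.68, adjusted p = 0.329), 0.36 ± 0.16 without DN 4 and 0.35 with array spread as a covariate. Ccnb1, cyclin B1, gave DD minus DN of -0.26 ± 0.24 and DN minus NN of 0.41 ± 0.24. Foxm1, the transcription factor of the G2 and mitosis genes, averaged 2.87 ± 0.19 in DD, 3.02 ± 0.41 in DN, 3.01 ± 0.12 in ND and 3.15 ± 0.14 in NN livers. Its mean was highest in NN, unlike that of the cyclins.

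Mitotic kinases and checkpoint genes had a median DD minus DN difference of -0.18, with 5 of 6 negative and values from -0.33 to 0.11. Aurkb, the kinase of the chromosomal passenger complex, had values of 3.25, 3.56, 3.56 and 3.43 in the DD livers, 3.33, 3.45, 3.43, 4.38 and 3.56 in the DN livers, 3.78, 3.15, 3.34 and 3.51 in the ND livers and 3.67, 3.87, 3.91 and 3.66 in the NN livers. Every DD liver lay below every NN liver, while DN 4 was far above the other DN livers, which lay between 3.33 and 3.56. DD minus NN was -0.33 ± 0.19 (95% interval -0.73 to 0.08, adjusted p = 0.999), and ND minus NN was -0.33 ± 0.19 (adjusted p = 0.889). Groups without overlap made up 1.8% of all genes in DD against NN, and 1.01% with the same direction, against 1 of the 31 here.

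Aurka, the spindle pole kinase, averaged 4.45 ± 0.056 in DD, 4.33 ± 0.18 in DN, 4.65 ± 0.26 in ND and 4.57 ± 0.17 in NN livers and was 1 of the 4 genes with a positive DD minus DN difference (0.11 ± 0.13), with Cdt1, Mcm3 and Ccne1. DD minus ND for Aurka was -0.20 ± 0.14 (adjusted p = 0.65), -0.11 without ND 1 and -0.08 after repeated quantile normalisation. DD minus DN was -0.07 ± 0.16 for Plk1, a kinase of mitotic entry, -0.22 ± 0.19 for Bub1 and -0.18 ± 0.15 for Bub1b, both of the spindle checkpoint, and -0.33 ± 0.15 for Ttk, the kinase that starts checkpoint signalling.

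All 5 spindle and kinetochore genes were lower on average in DD than in DN and higher in DN than in NN. Prc1, which bundles microtubules of the central spindle, had values of 2.10, 2.82, 2.35 and 2.28 in the DD livers, 2.88, 2.73, 2.43, 4.03 and 3.20 in the DN livers, 2.96, 2.39, 2.73 and 3.04 in the ND livers and 2.82, 3.08, 2.91 and 2.37 in the NN livers. DN 4 stood far above the next DN liver, DN 5, and DD 1, DD 4 and DD 3 were the 3 lowest livers of all. DD minus DN was -0.67 ± 0.26 (95% interval -1.21 to -0.13, adjusted p = 0.192), and -0.42 ± 0.20 without DN 4 (adjusted p = 0.385). With array spread as a covariate it was -0.27. DD minus ND was -0.39 ± 0.27 (adjusted p = 0.65) and DD minus NN -0.41 ± 0.27 (adjusted p = 0.999), which became -0.01 and -0.26 with that covariate.

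Kif11, the motor that pushes spindle poles apart, had values of 2.35, 2.43, 2.47 and 2.45 in the DD livers, 2.51, 2.48, 2.80, 2.93 and 2.78 in the DN livers, 2.47, 2.29, 2.39 and 2.81 in the ND livers and 2.45, 2.47, 2.47 and 2.28 in the NN livers. It was dim, and all 5 DN livers lay above all DD and all NN livers, but narrowly. The closest were DN 2 at 2.479 and, at 2.470 each, DD 3 and NN 2. Its DD minus DN difference was -0.27 ± 0.12 (adjusted p = 0.245), DN minus NN 0.28 ± 0.12 (adjusted p = 0.348) and the interaction -0.34 ± 0.18 (adjusted p = 0.286). Without DN 4, DN minus NN was 0.22 ± 0.13 and the interaction -0.29, and the covariate of array spread brought the interaction to -0.21.

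Tpx2, which activates Aurora A at the spindle, had values of 2.61, 3.00, 3.03 and 2.99 in the DD livers, 3.25, 2.74, 3.21, 3.94 and 3.57 in the DN livers, 3.53, 2.47, 2.94 and 3.38 in the ND livers and 2.76, 3.60, 2.84 and 2.87 in the NN livers. The DD livers were at or below 3.03, and 4 of the 5 DN livers were above that. For this gene DD minus DN was -0.44 ± 0.24 (adjusted p = 0.34). The central spindle motor Kif20a averaged 2.87 ± 0.21 in DD, 2.92 ± 0.46 in DN, 2.87 ± 0.16 in ND and 2.85 ± 0.11 in NN livers, and Cenpf, a kinetochore protein, gave DD minus DN of -0.11 ± 0.14. Cdc20, the activator of the anaphase-promoting complex, averaged 3.85 ± 0.50 in DD, 4.14 ± 0.37 in DN, 3.87 ± 0.18 in ND and 3.86 ± 0.39 in NN livers, with DD minus DN at -0.29 ± 0.23.

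DD against DN bears on the lactation diet in pups whose mothers were deficient in pregnancy. Here 27 of the 31 differences were negative. The median DD minus DN difference was -0.20, against 0.01 and 48.4% negative over all genes. Genes that were not dim had a median of -0.05 and dim genes 0.08. The S phase median was -0.18 (11 of 14 negative) and the mitosis median -0.23 (16 of 17 negative). At an unadjusted p under 0.05 there were 7 of 31 genes, against 18.5% of all. Of these, 6 were lower in DD (Mcm4, Prc1, Ccna2, Kif11, Ttk and Tyms), against 10.6% of all, and Cdt1 was higher, against 7.84%. Groups did not overlap for 2 of 31, against 5.88% of all genes. These were Cdt1, higher in DD (2.68% of all), and Kif11, lower in DD (3.2% of all).

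Without DN 4 the median was -0.12, with 23 of 31 negative and 2 genes at an unadjusted p under 0.05. Without DD 1 it was -0.11, with 25 negative. With array spread as a covariate it was -0.02, with 17 of 31 negative. The part of array spread in the median was not tested.

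**Figure D3:**
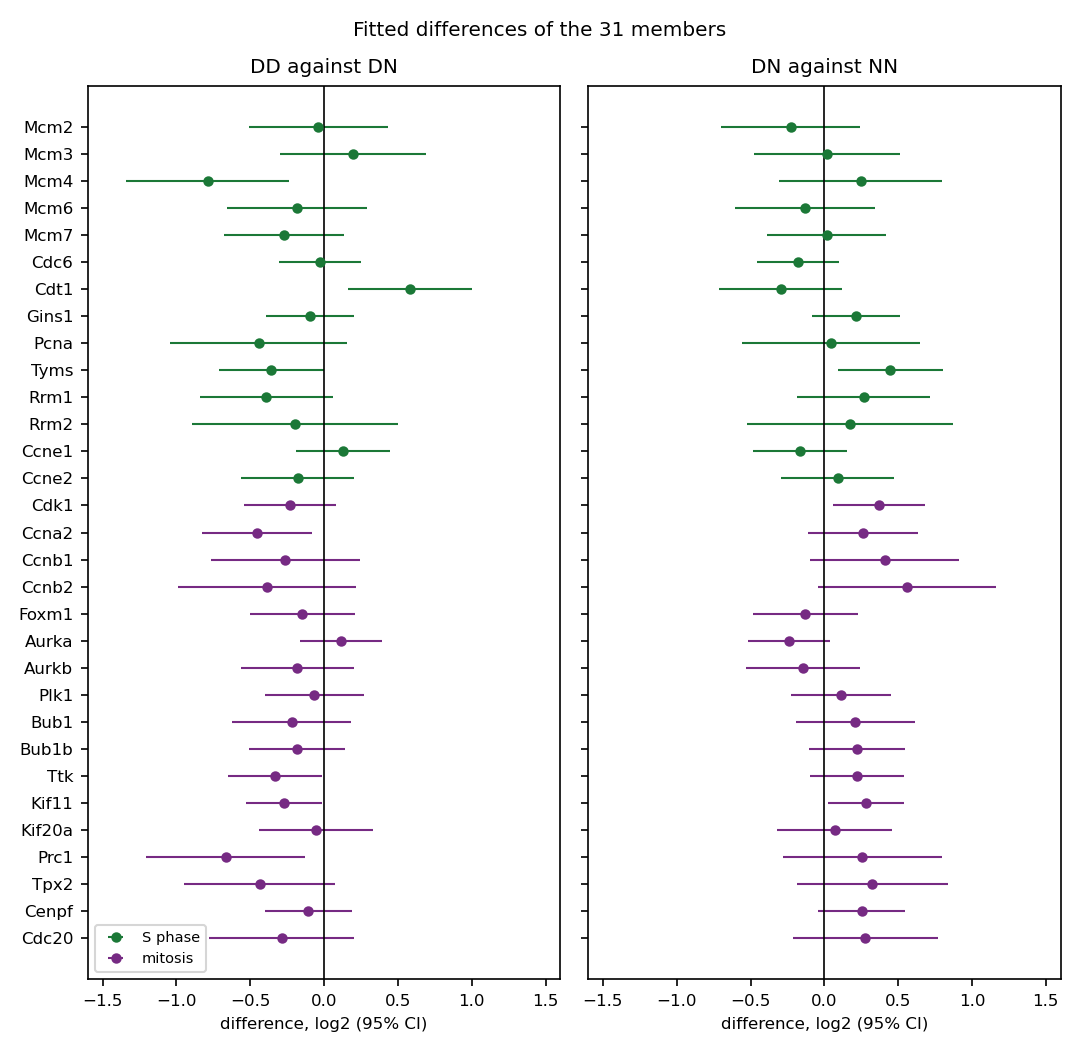
Points are fitted log2 differences of the 31 genes in DD against DN (left) and DN against NN (right), with 95% intervals. The left panel has 27 of 31 points under 0 and the right panel 23 of 31 above it, and both panels use the same DN livers.

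DN against NN asks about the deficient pregnancy diet when lactation was adequate. The median was 0.21, with 23 of 31 genes positive, against -0.03 and 44.5% positive over all genes. All genes that were not dim had a median of 0.01 and all dim genes -0.08. Mitosis genes had a median of 0.25 (14 of 17 positive) and S phase genes 0.03 (9 of 14 positive). At an unadjusted p under 0.05 there were 3 genes, Tyms, Cdk1 and Kif11, all higher in DN, against 13.4% of all genes in both directions and 6.78% higher. Kif11 was the single gene without overlap, against 3.04% of all and 1.12% with DN higher. This comparison shares its DN livers with DD against DN. Without DN 4 the median was 0.06, with 11 of 31 negative. It was 0.10 without NN 3, 0.12 without NN 4 and 0.14 without DN 3. With array spread as a covariate it was 0.01.

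Medians of the 3 other pairs of groups lay closer to 0. DD and ND differ in the pregnancy diet. In DD against ND the median was -0.08, with 24 of 31 negative, against -0.02 and 52.9% negative over all genes. All genes that were not dim had a median of -0.084, nearly that of the set's genes that were not dim (-0.085). Of all genes not dim, 62.2% were negative. All dim genes had a median of 0.06. No gene of the set had an unadjusted p under 0.05 there, against 8.77% of all. In ND against NN the median was 0.02, with 17 of 31 positive, against -0.008 and 48.4% positive over all genes. Over genes not dim the median was 0.04, with 56.2% positive. No gene of the set had an unadjusted p under 0.05, against 4.63% of all. In DD against NN the median was -0.04, with 19 of 31 negative, against -0.03 and 56.2% negative over all genes. Over genes not dim the median was also -0.04, with 59.1% negative, so the set lay near that share. Again 0 genes of the set had an unadjusted p under 0.05, against 3.58% of all. The interaction had a median of -0.19, about as far from 0 as DD against DN, with 23 of 31 negative. Over its mitosis genes the median was -0.29, with 15 of 17 negative. Of all genes 46.9% were negative in the interaction, and of those not dim 56.5%. Over all genes the median of the interaction was 0.03, with -0.08 over those not dim and 0.14 over dim ones. In the set it was -0.19 over genes not dim and -0.26 over dim ones. Without DN 4 the median of the set was -0.14 with 19 negative. The median of the interaction was 0.03 with array spread as a covariate, and that of DD against ND 0.16. ND against NN turned negative without NN 1, NN 3, ND 1 or ND 4, the lowest value being -0.05 without NN 3, and DD against NN turned positive (0.04) without NN 2. With array spread as a covariate the medians were -0.085 in ND against NN and 0.02 in DD against NN. After repeated quantile normalisation ND against NN stood at -0.003.

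Many S phase genes were high and low in the same livers. Pcna and Ccnb2 were taken as the S phase and the mitosis gene with the highest mean, and 91 correlations over the 17 arrays were computed with them and with array spread. With Pcna, 7 of 13 S phase genes passed by both Pearson and Spearman (permutation tests, adjusted p under 0.05 over the 91). They were Mcm7 (r = 0.87, rho = 0.86), Mcm6 (r = 0.86, rho = 0.85), Mcm4 (r = 0.81, rho = 0.81), Rrm2 (r = 0.75, rho = 0.75), Rrm1 (r = 0.74, rho = 0.71), Tyms (r = 0.71, rho = 0.74) and Mcm2 (r = 0.70, rho = 0.70). Over all genes, dim ones included, the median r with Pcna was -0.02, with 48.5% positive. None of the 7 genes is dim, and the median over genes that were not dim was not computed for Pcna. Pcna itself had r = 0.71 with array spread. The adjusted p of the 7 genes ran from 0.000910 to 0.0157 by Pearson and from 0.00182 to 0.0236 by Spearman.

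Without DN 4 and DD 3, the 2 livers farthest from the median of Pcna, the r values of these 7 genes lay between 0.60 and 0.82. DN 4 was the highest liver for Mcm4, Mcm6, Mcm7 and Pcna, and NN 2 the second highest for Mcm6 and Pcna. As deviations from group means, the median r of S phase genes with Pcna was 0.73, against 0.70 pooled. Cdt1 did not follow them (r = -0.14, adjusted p = 0.689, permutation test). Mitosis genes had a median r of 0.49 with Pcna, and 0 of 17 passed by both measures. Ccna2 (r = 0.70) and Ttk (r = 0.62) passed with Pcna by Pearson alone (permutation adjusted p = 0.0157 and 0.0458).

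With Ccnb2 the median r of mitosis genes was 0.33, and 0.08 without the 2 farthest livers, again DN 4 and DD 3. None of the 30 genes passed with Ccnb2 by both measures, and Ccna2 (r = 0.68) and Tyms (r = 0.62) passed by Pearson alone (permutation adjusted p = 0.0183 and 0.0458).

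**Figure D4:**
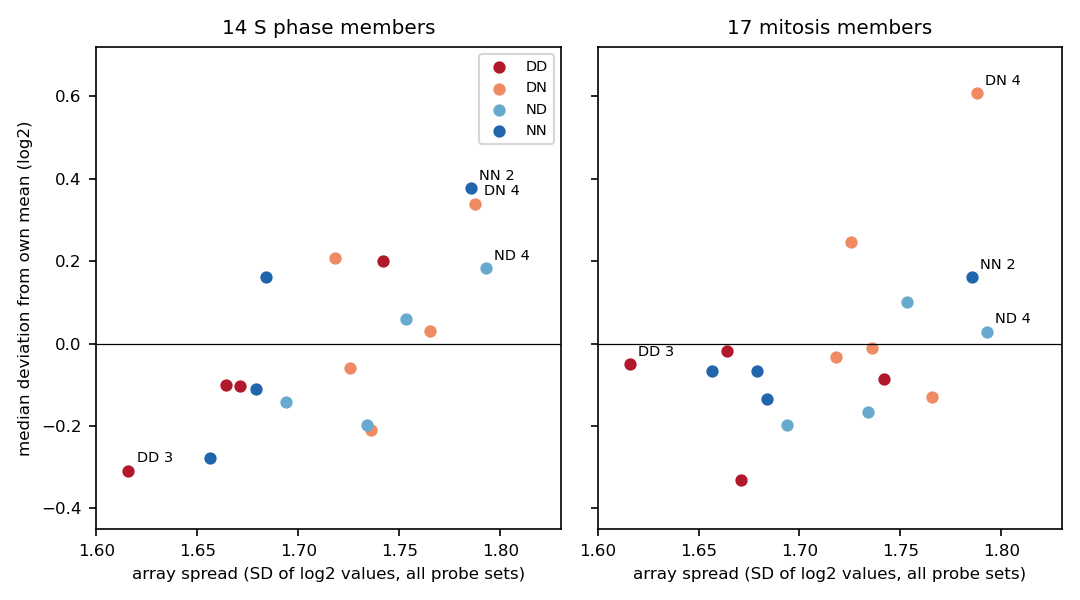
Each point is a liver, with array spread (SD of log2 values over all probe sets) on the horizontal axis. The vertical axis is the median deviation of the S phase genes (left) or mitosis genes (right) from their own means. S phase genes run between -0.31 in DD 3 and 0.38 in NN 2, and DN 4 stands at 0.61 among the mitosis genes.

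Array spread was positively correlated with most genes of the set. The median r was 0.52, with 27 of 31 positive, against -0.02 over all genes and 0.24 over genes that were not dim. Mcm4 (r = 0.73), Prc1 (r = 0.67) and Ccna2 (r = 0.66) passed by both measures (permutation tests, Pearson adjusted p = 0.0118 for Mcm4 and 0.0183 for the other two). These 3 are also the genes with the largest negative statistics in DD against DN. As deviations from group means, which leave out the difference between groups, the median r with array spread was 0.48.

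Genes of the same pathways outside the set were taken from written lists, and none passed in DD against DN or DN against NN. Of the replication list 41 of 48 genes were tested, with a DD minus DN median of -0.08 and 23 of 41 negative. Its leaders were origin recognition subunits, Orc4 at -1.17 ± 0.36 and Orc3 at -0.54 ± 0.19 (adjusted p = 0.139 and 0.163). These 2, picked by their statistic, had no overlap between DD and DN, as had 5.88% of all genes, 3.2% with DD lower. In DN against NN Orc4 was 1.00 ± 0.36, and Rpa3, of the single-strand binding protein RPA, 1.32 ± 0.42, with 16 of 41 genes positive. Of the mitosis list 35 of 52 were tested, with 28 of 35 negative in DD against DN (median -0.14) and 28 of 35 positive in DN against NN (median 0.17). Condensin genes led it: Ncapd2 at -0.53 ± 0.19 and Smc4 at -0.87 ± 0.37 in DD against DN, and Smc4 at 0.91 ± 0.37 and Ncapg at 0.52 ± 0.22 in DN against NN.

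Of 18 tested brakes 13 were negative in DD against DN (median -0.13), against 48.4% of all genes. Their leaders were the antiproliferative Tob1 (-0.90 ± 0.32) and Ccng2 (-0.79 ± 0.30, limma adjusted p = 0.187). In DN against NN Rbl2, a pocket protein of the DREAM complex, was 0.52 ± 0.16 and the stress gene Gadd45b -0.48 ± 0.18. The hepatocyte growth factor Hgf and its receptor Met gave DD minus DN of -0.64 ± 0.22 and -0.82 ± 0.21 (adjusted p = 0.166 and 0.131). DN minus NN was 0.61 ± 0.22 for Hgf and 0.56 ± 0.21 for Egfr, the epidermal growth factor receptor. Of the 4 tested G1 and E2F regulators all 4 were negative in DD against DN (median -0.13), and of the 5 fetal liver genes 3 were negative (median -0.02).

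No marker of other liver cells passed in DD against DN or DN against NN. Over all genes 48.4% were negative in the first and 44.5% positive in the second. Endothelial markers were negative for 4 of 4 in DD against DN (median -0.62, smallest adjusted p = 0.143) and positive for 4 of 4 in DN against NN (median 0.41). Their summed linear signal lay between 151 and 262 in DD, 216 and 327 in DN, 198 and 312 in ND, and 149 and 308 in NN livers. Kupffer cell and macrophage markers were negative for 4 of 6 in DD against DN (median -0.24, smallest adjusted p = 0.131), with sums of 214 to 257 in DD and 187 to 372 in DN livers. Erythroid markers were positive for 4 of 6 in DD against DN (median 0.12, smallest adjusted p = 0.224), with sums of 90.5 to 164 in DD and 119 to 135 in DN livers. Lymphocyte sums were 18.9 to 21.8 in DD and 21.4 to 26.1 in DN livers. The part of these cells in the cell cycle values was not tested.

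The median within-group SD was 0.288 over the 31 genes (0.331 in S phase and 0.274 in mitosis), against 0.248 over all genes tested. Kif11 varied least, at 0.162.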

How the data were processed

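Affymetrix arrays were hybridised with biotin-labelled RNA of 17 rat livers, per the labels' protocols. The authors deposited log2 probe set values made with RMA and affy, per the submitters' processing notes. The labels do not state the log base, and 2, the base RMA uses, was assumed. RMA normalises arrays against each other, so the values are relative signals with no depth. Of 36685 probe sets, 14824 have 1 gene symbol and were used, 829 have several and 21032 are unnamed here. The probe set with the highest mean represented each of 234 genes with several, leaving 14557 genes. Those above the 25th percentile (1.73) in at least 4 arrays were tested, 12912 genes. Limma 3.58.1 (R 4.3.3; lmFit and eBayes) fitted 4 group means to all 17 arrays, with calls at an adjusted p under 0.05 (Benjamini-Hochberg). The ± sign gives the SD of a group mean and the SE of a difference. The test was also run on simulated data with independent noise for each gene and array, which leaves out differences in array spread. Its outcome is not given, so it does not show here how small a difference could pass. Correlations had 2-sided permutation tests with 100000 resamples. Summed marker signals are sums of values taken back from log2.

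The members, lists and tests were chosen with earlier results of these data known. Values are given for the 2 genes with the highest mean in each role and the 4 with the largest moderated statistic in each comparison, 20 genes in all; the other 11 have a value in passing. From each other list up to 2 genes are named by the same statistic. Alternatives were filters, probe set averaging, variance models, array weights, normalisation, array spread as a covariate, a replicate block and leaving out arrays.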

Additional observations from a re-analysis of the deposited data

Results flagged for a closer look

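Within each group, the highest and lowest liver of the 20 genes described with values in every group, and of 3 summaries over genes, were set against the rest by Dixon's test. Of 92 such groups 8 had a liver far from the others, where chance gives about 1 in 20. The median deviation of the 31 genes was 0.53 in DN 4, far above the other DN livers, and Aurkb read 4.38 in the same liver. Liver NN 2 was far above the other NN livers for Ccna2 (4.30) and Tpx2 (3.60). The low outliers were Ccna2 in ND 2 (3.55), Kif11 in NN 4 (2.28), Aurka in DD 2 (4.36) and Tpx2 in DD 1 (2.61). No cause was tested.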

How the results depend on the processing

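No cell cycle gene passed in any of the 28 settings. The count of all genes called in DD against DN was 1 and became 0 with no filter, with arrays centred on their median, with array spread as a covariate, in a fit of those 9 arrays alone and without DD 3 and DN 3. Leaving out 1 array at a time gave 0 to 1 genes for DD against DN (0 for 12 of the 17 arrays), 0 to 18 for DN against NN and 0 to 639 for the interaction. The 18 and the 639 came without NN 2, and the cause was not tested. The replicate number as a block gave 3 genes in DD against DN. Whether replicate numbers pair the livers was not settled. Deviations from group means in 24 same-numbered pairs correlated at -0.45 to 0.53, median 0.04. In the 84 other pairs between groups they correlated at -0.43 to 0.52, median -0.03. A correlation over 0.1 was found in 11 of the same-numbered pairs and 26 of the others. Of the 17 livers 8 correlated best with their own number. The block changed no call of a cell cycle gene, and their median there was -0.22. Medians over the set moved by more than the spread between replicates with array spread as a covariate only: 0.16 in DD against ND, 0.011 in DN against NN and 0.033 in the interaction. With arrays centred on their median, the medians over the set were -0.27 in DD against DN, -0.14 in DD against ND and 0.27 in DN against NN. They were then 0.07 in ND against NN, -0.05 in DD against NN and -0.31 in the interaction. Leaving out 1 array at a time, the medians ran from -0.27 to -0.11 in DD against DN, -0.15 to -0.01 in DD against ND, 0.06 to 0.26 in DN against NN, -0.05 to 0.06 in ND against NN, -0.11 to 0.04 in DD against NN and -0.30 to -0.11 in the interaction. No named gene passed in the main setting or in the others, so its side of the threshold says nothing about stability. Of 667 values of named genes under alternatives, 29 moved by over 1.5 times, 15 of them with array spread as a covariate, and 0 changed sign. Signal over background was not measured for single probe sets, so how far the 7 dim genes lie above it is unknown.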
